A study of Arabidopsis thaliana with 9 samples.

Results

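The 6 genes described here had more transcript in Arabidopsis thaliana leaves exposed to silver nanoparticles (AgNPs) than in leaves exposed to silver ions (Ag+). They are LECRKA4.1 (AT5G01540), EXO70H2 (AT2G39380), AT3G07195, SDR5 (AT2G47140), SHB1 (AT4G25350) and AT1G49000. They were taken by locus from the 38202 gene rows of the count table, and all 6 were among the 19889 genes with enough counts to be tested. The 6 genes were chosen by the measured difference between AgNPs and Ag+, so it is given here as a description without a test. The choice did not use the leaves without silver, and the question followed here is where those leaves stand for each gene. Every comparison with those leaves still shares its silver libraries with the choice, so the p-values of the 6 genes are not independent of it.

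The study sequenced RNA of leaves of the ecotype Columbia in 9 libraries, 3 for each of CK, Ag+ and AgNPs. CK was read as the group without silver because the labels name no other control, and all groups were grown for 6 days in MS, a standard plant medium. Neither the dose nor the length of the exposure to silver is stated, and the RNA samples are described as pooled. Whether the 3 libraries of a group are separate cultures is not stated, so p-values measure the spread between these libraries, which may be technical.

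Plants detect microbes with receptor kinases at the cell surface, and the response that these receptors start is called pattern-triggered immunity. Secretion carries receptors and wall material to the plasma membrane, where the exocyst, a complex with EXO70 proteins as variable subunits, tethers the arriving vesicles. RIN4 is a small protein at the same membrane that is watched by the resistance proteins RPM1 and RPS2. Lectin receptor kinases join an outer lectin-like domain to an inner kinase.

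By the RefSeq annotation of the assembly TAIR10.1, LECRKA4.1 lies on chromosome 5 and has 1 exon, EXO70H2 lies on chromosome 2 with 1 exon, and AT3G07195 lies on chromosome 3 with 3 exons. SDR5 lies on chromosome 2 with 3 exons, SHB1 on chromosome 4 with 11 and AT1G49000 on chromosome 1 with 1. AT3G07195 is on the plus strand and the other 5 genes are on the minus strand. Their predicted proteins have 682 residues for LECRKA4.1, 637 for EXO70H2, 238 for AT3G07195, 257 for SDR5, 745 for SHB1 and 156 for AT1G49000. The 2 genes on chromosome 2 are not neighbours, and the 6 belong to different annotated families.

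The W-box, the element bound by WRKY transcription factors of the defence response, was among the motifs searched on both strands of the 250 bases before each annotated start. It was searched as TTGACC or TTGACT, and 4 of the 6 windows held it, against 28.3% of the windows of 19223 tested genes. SDR5 and EXO70H2 each held 2, SHB1 and LECRKA4.1 each held 1, and AT3G07195 and AT1G49000 held none. At least 2 stood in 6.12% of the tested windows. The windows of SDR5 and SHB1 are printed here, with that of EXO70H1, the closest relative of EXO70H2, beside them. They are read 5′ to 3′ on the gene's own strand up to the base before the start, with W-boxes in capitals (GGTCAA and AGTCAA are the motif on the other strand). Going outward from the start, the print ends before the first base covered by an annotated exon. This leaves 235 of the 250 for SDR5 and is why no window of EXO70H2 or LECRKA4.1 is shown. The motifs were searched in all 250 bases, whether or not an exon covers them.
SDR5, TAIR10.1 chr2:19352089-19352323, minus strand: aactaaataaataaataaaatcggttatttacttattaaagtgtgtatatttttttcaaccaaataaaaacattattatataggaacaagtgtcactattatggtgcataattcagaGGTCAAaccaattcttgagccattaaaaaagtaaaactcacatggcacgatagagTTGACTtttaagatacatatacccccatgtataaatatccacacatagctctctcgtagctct
SHB1, TAIR10.1 chr4:12966630-12966879, minus strand: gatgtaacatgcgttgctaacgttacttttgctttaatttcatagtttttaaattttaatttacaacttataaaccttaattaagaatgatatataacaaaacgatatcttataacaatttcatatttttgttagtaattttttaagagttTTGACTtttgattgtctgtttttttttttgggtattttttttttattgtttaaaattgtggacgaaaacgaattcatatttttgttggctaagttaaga
EXO70H1, TAIR10.1 chr3:20442651-20442900, minus strand: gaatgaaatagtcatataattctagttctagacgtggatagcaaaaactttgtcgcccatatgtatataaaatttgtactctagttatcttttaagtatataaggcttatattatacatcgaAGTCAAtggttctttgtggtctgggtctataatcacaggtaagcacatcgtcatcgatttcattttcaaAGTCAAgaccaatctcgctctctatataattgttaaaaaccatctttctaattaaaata
The W-boxes of SDR5 began 118 and 63 bases before the start, that of SHB1 99 bases before it and those of EXO70H1 128 and 59 bases before it. In the windows not shown they began 170 and 87 bases before the start of EXO70H2 and 243 bases before that of LECRKA4.1.

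Each other motif stood in fewer of the 6 windows than the W-box. The heat-shock and phosphate-starvation motifs, like the W-box, stood in a larger share of the 6 windows than of the tested ones. None held TGACG, which stood in 19.5% of the tested windows. None held the abscisic-acid element ACGTG (23.7%) or the G-box CACGTG (7.45%). GTAC, the core of copper-response elements, stood in 2 of the 6 (EXO70H2 and LECRKA4.1) against 34.6%. The heat-shock element GAANNTTC stood in 2 (AT3G07195 and AT1G49000) against 9.40%, and the phosphate-starvation motif GNATATNC in 1 (AT3G07195) against 5.50%. TGACG overlaps the W-box in 4 letters, and the G-box contains the abscisic-acid element. A match describes the letters of these windows and does not show a bound site.

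Total counts ran from 16884010 to 19876151 per library. Leaf markers summed to 22136 to 32805 CPM (the usual per-library scaling of counts, on TMM library sizes) in CK, 38212 to 45444 in Ag+ and 27934 to 38650 in AgNPs, so leaf RNA was abundant in each library. Root markers had a median of 11.4 CPM in AgNPs 1 and of 1.11 to 5.0 in the other 8 libraries. Most of their summed level came from PYK10, which was abundant in every library, from 1843 (CK 3) up to 3197 CPM (AgNPs 1). Each CK library, at most 2017 CPM (CK 1), lay below each silver library, at least 2124 CPM (Ag+ 1). PYK10 was called by edgeR in none of the 4 comparisons. Without PYK10 the root markers summed to 171 CPM for AgNPs 1 and to at most 58.6 CPM (Ag+ 2) elsewhere. Seed storage genes had a summed level of 0.149 to 1.07 CPM across CK, of 3.28 to 31.6 across Ag+ and of 5.51 to 15.1 across AgNPs. Heat-shock genes summed to 157, 156 and 1106 CPM in CK 1 to 3, to 115, 85.7 and 316 in Ag+ 1 to 3, and to 361, 1227 and 1618 in AgNPs 1 to 3. AgNPs 1 and CK 3 thus stood apart within their groups, and values without these 2 libraries are given where a call changes. In bulk leaf RNA, fewer cells of a type and less RNA per cell cannot be told apart.

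Across the 6 genes the order of the group means was the same, with Ag+ lowest, CK above it and AgNPs highest. For every gene each Ag+ library lay below each CK library, which was true of 10.7% of the tested genes. The 6 genes were chosen for being low in these Ag+ libraries relative to AgNPs, so this gap was partly fixed by the choice. CK and AgNPs overlapped in 5 of the 6 genes, and in SHB1 each AgNPs library lay above each CK library. The share of all tested genes with such a gap was not counted, so this is a description only. By fitted fold change, Ag+ lay further from CK than AgNPs did in each of the 6 genes, except that without CK 1 AT1G49000 stood at -1.21 with Ag+ and 1.54 with AgNPs.

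**Figure D1:**
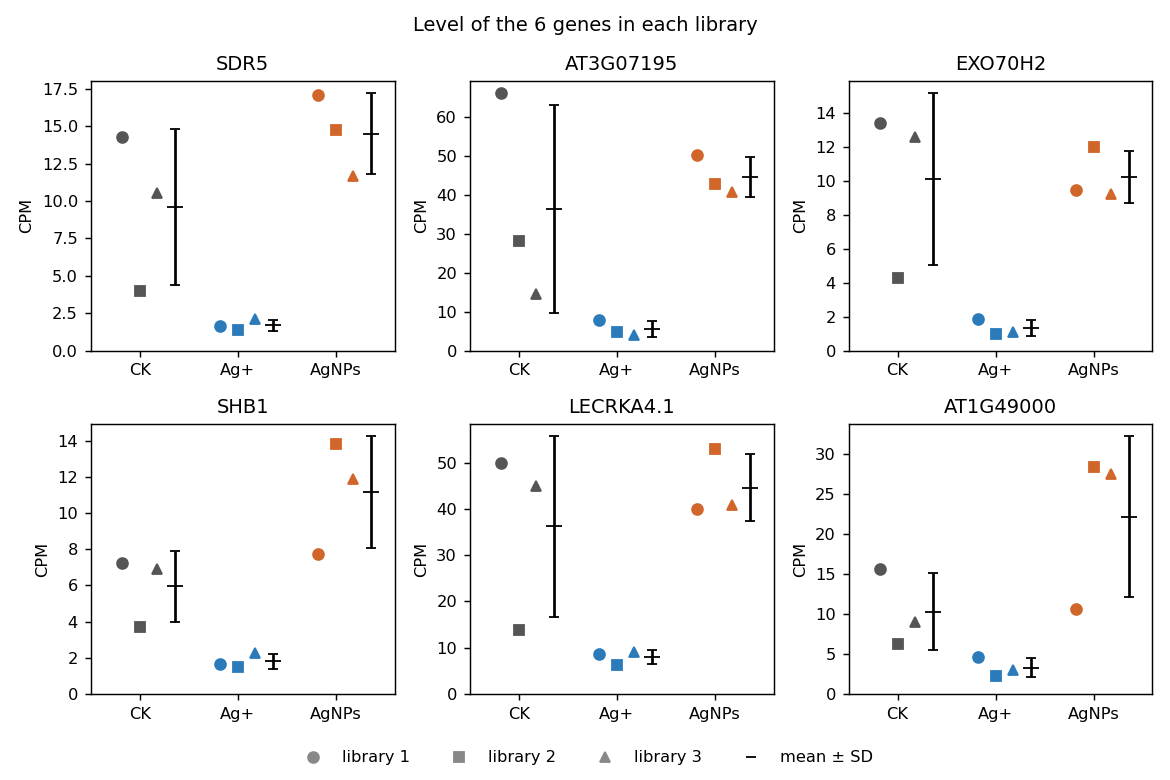
Level of each of the 6 genes in CPM (linear axis from 0) in the 3 libraries of CK, Ag+ and AgNPs, with the mean and SD of each group in black. The Ag+ libraries lie lowest in all 6 panels, the CK libraries are spread widely, and only in SHB1 does every AgNPs library lie above every CK library.

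LECRKA4.1 encodes a lectin receptor kinase known for promoting pattern-triggered immunity and, with its neighbours, for damping the response to abscisic acid during germination. Its level was 50.0, 13.7 and 44.9 CPM in CK 1 to 3, a mean of 36.2 ± 19.6 (SD, n = 3). In Ag+ 1 to 3 it was 8.61, 6.28 and 9.14 CPM (8.01 ± 1.53), and in AgNPs 1 to 3 it was 40.0, 52.9 and 40.8 CPM (44.5 ± 7.25). The 3 Ag+ libraries were low, CK 2 lay between them and the rest, and the other CK libraries lay among those of AgNPs. Against CK, Ag+ was 4.52-fold lower (log2 fold change of -2.18 with an SE of 0.42, edgeR adjusted p = 0.0207; -2.0 and not called without AgNPs 1 and CK 3, adjusted p = 0.0691), and AgNPs differed by 0.30 (SE 0.39, edgeR adjusted p = 0.786). The call for Ag+ was also lost without CK 1 (edgeR adjusted p = 0.0517) and with only the groups compared (0.0547). It was lost as well without Ag+ 1 (0.0724), Ag+ 2 (0.0898) or Ag+ 3 (0.0618).

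EXO70H2 encodes an EXO70 subunit of the exocyst. It was read at 13.4, 4.27 and 12.6 CPM in CK 1 to 3 (10.1 ± 5.05), at 1.89, 1.00 and 1.11 CPM in Ag+ 1 to 3 (1.34 ± 0.486) and at 9.47, 12 and 9.22 CPM in AgNPs 1 to 3 (10.2 ± 1.51). The means of CK and AgNPs were nearly equal, and CK 2 was again the lowest CK library. Ag+ was 7.60-fold lower than CK (log2 fold change of -2.93 with an SE of 0.44, edgeR adjusted p = 0.00709). The difference between AgNPs and CK was 0.02 (SE 0.38, edgeR adjusted p = 0.990), and it turned to -0.34 without CK 2 and to -0.11 without AgNPs 2. EXO70H2 was the 1 gene of the 6 whose fall with Ag+ was called in all 18 alternatives of the fit.

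AT3G07195 is annotated as a protein of the RIN4 family and had the highest level of the 6 genes per kilobase of transcript, 33.2 CPM per kb in CK. Its level was 66.1, 28.2 and 14.7 CPM in CK 1 to 3 (36.3 ± 26.7), 7.96, 4.89 and 4.1 CPM in Ag+ 1 to 3 (5.65 ± 2.04) and 50.3, 42.7 and 40.7 CPM in AgNPs 1 to 3 (44.6 ± 5.06). The CK libraries enclosed those of AgNPs, and CK 3, not CK 2, came nearest to Ag+. Ag+ was 6.45-fold lower than CK (log2 fold change of -2.69 with an SE of 0.51, edgeR adjusted p = 0.0192). This call was lost without Ag+ 2 (edgeR adjusted p = 0.0838), without Ag+ 3 (0.0737) and with only the groups compared (0.0531). AgNPs differed from CK by 0.29 (SE 0.46, edgeR adjusted p = 0.826), which turned to -0.08 without CK 3 and to -0.18 without CK 3 and AgNPs 1.

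SDR5 encodes a short-chain dehydrogenase/reductase, an enzyme type that oxidises or reduces small molecules with NAD(P). It had 14.3, 3.98 and 10.5 CPM in CK 1 to 3 (9.60 ± 5.22), 1.63, 1.39 and 2.11 CPM in Ag+ 1 to 3 (1.71 ± 0.367) and 17.1, 14.7 and 11.7 CPM in AgNPs 1 to 3 (14.5 ± 2.72). AgNPs 3 lay within the CK range and the other 2 AgNPs libraries just above it. Ag+ was 5.61-fold lower than CK (log2 fold change of -2.49 with an SE of 0.43, edgeR adjusted p = 0.0127), and AgNPs differed from CK by 0.59 (SE 0.38, edgeR adjusted p = 0.499). The call for Ag+ was lost without Ag+ 1 (edgeR adjusted p = 0.0595), without Ag+ 2 (0.0676) and with limma voom (0.0576).

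SHB1 encodes a protein with SPX and EXS domains, the layout of the phosphate exporter PHO1, and is known for its part in blue-light growth and seed size. Its level was the lowest of the 6 per kilobase, 2.10 CPM per kb in CK. It was 7.24, 3.70 and 6.91 CPM in CK 1 to 3 (5.95 ± 1.96), 1.63, 1.5 and 2.29 CPM in Ag+ 1 to 3 (1.81 ± 0.421) and 7.75, 13.8 and 11.9 CPM in AgNPs 1 to 3 (11.2 ± 3.10). The 3 groups did not overlap, though AgNPs 1 lay only just above CK 1. Ag+ was 3.29-fold lower than CK (log2 fold change of -1.72 with an SE of 0.33, edgeR adjusted p = 0.0165). This call was lost without CK 1 (edgeR adjusted p = 0.0508), Ag+ 1 (0.0707) or Ag+ 2 (0.0813), and with limma voom (0.0559). AgNPs differed from CK by 0.91 (SE 0.30, edgeR adjusted p = 0.148), and without AgNPs 1 and CK 3 the difference was 1.22 and called (edgeR adjusted p = 0.0390).

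AT1G49000 is annotated as an uncharacterized protein. It was at 15.6, 6.20 and 9.0 CPM in CK 1 to 3 (10.3 ± 4.84), at 4.63, 2.28 and 2.99 CPM in Ag+ 1 to 3 (3.30 ± 1.21) and at 10.6, 28.4 and 27.5 CPM in AgNPs 1 to 3 (22.2 ± 10.1). AgNPs 2 and AgNPs 3 lay above all CK libraries, and AgNPs 1, the library with the most root marker RNA, lay among them. Ag+ was 3.14-fold lower than CK and not called (log2 fold change of -1.65 with an SE of 0.48, edgeR adjusted p = 0.0878). It was called by DESeq2 on all libraries (-1.65, adjusted p = 0.00407), without AgNPs 1 (-1.65, adjusted p = 0.0348) and without AgNPs 1 and CK 3 (-1.74, adjusted p = 0.0456). It was also called with the replicate number as a block in a fit of the CK and Ag+ libraries that was added after seeing the data (-1.60, edgeR adjusted p = 0.00325). AgNPs were at 1.11 relative to CK (SE 0.44, edgeR adjusted p = 0.237).

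In the comparison that chose them, AgNPs against Ag+, the fitted log2 fold changes were 3.08 for SDR5, 2.98 for AT3G07195, 2.94 for EXO70H2, 2.76 for AT1G49000, 2.62 for SHB1 and 2.48 for LECRKA4.1. They held ranks 9 to 16 by fold among the 101 genes called higher, 0.508% of those tested, while 0.176% were called lower. In the 5 fits without one of the Ag+ libraries, AgNPs 2 or AgNPs 3, edgeR called 0 genes of the whole table in this comparison. At an unadjusted p under 0.05 there were 1907 to 2757 genes in these 5 fits, and with all libraries DESeq2 called 868 genes and limma voom 50.

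A comparison that does not use the difference between the silver forms set the mean of both silver groups against CK. It is named both silver groups against CK, and a call in it need not hold for each silver form. It takes its silver libraries and its estimate of the spread from the same fit as the choice. Here 1 of the 6 genes was lower and 0 were higher. That gene was EXO70H2 (log2 fold change of -1.45 with an SE of 0.34, edgeR adjusted p = 0.0384). EXO70H2 stood at -2.93 in Ag+ against CK and at 0.02 in AgNPs against CK, so the low mean came from the Ag+ libraries. Over all tested genes 1.78% of genes were called lower and 3.38% higher. AT3G07195 had -1.20 (edgeR adjusted p = 0.137), SDR5 -0.95 (0.164), LECRKA4.1 -0.94 (0.173), SHB1 -0.41 (0.482) and AT1G49000 -0.27 (0.795). The median of the 6 was -0.94, beside -0.015 over all genes tested. The call of EXO70H2 was lost when any one library except CK 2 was left out, with adjusted p between 0.050 and 0.140, and with limma voom (0.108). Without CK 2, the call also took in SDR5 (-1.32, adjusted p = 0.0174) and LECRKA4.1 (-1.33, adjusted p = 0.00535). Without CK 3 it took in AT3G07195 (-1.59, adjusted p = 0.0251) in place of EXO70H2, as it did without AgNPs 1 and CK 3 (-1.62, adjusted p = 0.0375, in place of -1.24 for EXO70H2 with adjusted p = 0.119).

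Of the comparisons of a single silver form with CK, Ag+ gave 5 of the 6 genes lower and 0 higher, and AgNPs gave 0 in either direction by edgeR, DESeq2 and limma voom. Each shares its silver libraries with the choice, so a low level with Ag+ and a high level with AgNPs was partly fixed by it. The background was 2.05% lower and 3.52% higher for Ag+ against CK, and 2.23% higher and 1.09% lower for AgNPs against CK. At an unadjusted p under 0.05, 2 of the 6 genes differed between AgNPs and CK, SHB1 and AT1G49000. The medians of the 6 were -2.33 for Ag+ and 0.44 for AgNPs, beside -0.0087 and -0.0026 over all genes. The called genes for Ag+ numbered 3 without CK 1, 2 without Ag+ 1, 1 without Ag+ 2, 3 without Ag+ 3, and 3 with limma voom or with only the 6 libraries compared. They numbered 6 with DESeq2, and 6 with the replicate block in a fit of the CK and Ag+ libraries.

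**Figure D2:**
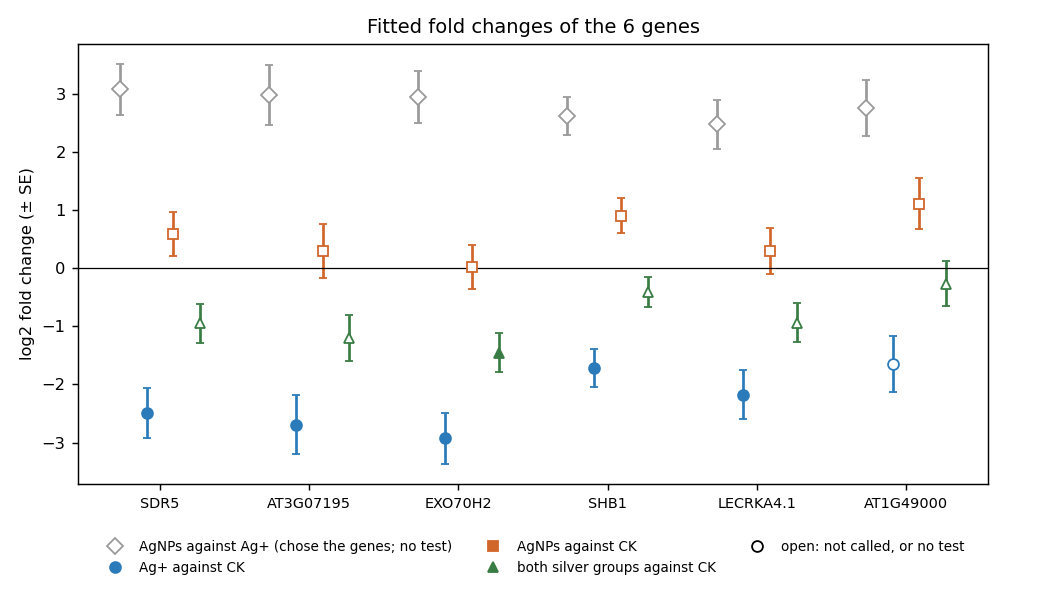
Fitted log2 fold change (vertical axis, bars are SE) of each of the 6 genes in AgNPs against Ag+ (grey, the comparison that chose the genes), Ag+ against CK, AgNPs against CK and both silver groups against CK. Filled symbols are called at an adjusted p under 0.05. The Ag+ symbols lie between -2.93 and -1.65, and the AgNPs symbols lie between 0.02 and 1.11.

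The CK libraries differed more among themselves than those of either silver group in 4 of the 6 genes by SD. CK 1 was the highest CK library for all 6 genes, and CK 2 was the lowest for 5. Summed over the 6 genes, the level was 167, 60.0 and 98.6 CPM for CK 1 to 3, then 26.4, 17.3 and 21.7 for Ag+ 1 to 3 and 135, 165 and 142 in AgNPs 1 to 3. Genes of pattern-triggered immunity summed to 2759, 1196 and 984 CPM in CK, 1251, 974 and 762 in Ag+ and 2476, 1515 and 1555 in AgNPs, also highest in CK 1 and lowest as a group in Ag+. Heat-shock RNA was low in CK 1 and CK 2 alike and high in CK 3, AgNPs 2 and AgNPs 3. The part of these library differences in the levels of the 6 genes was not tested.

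**Figure D3:**
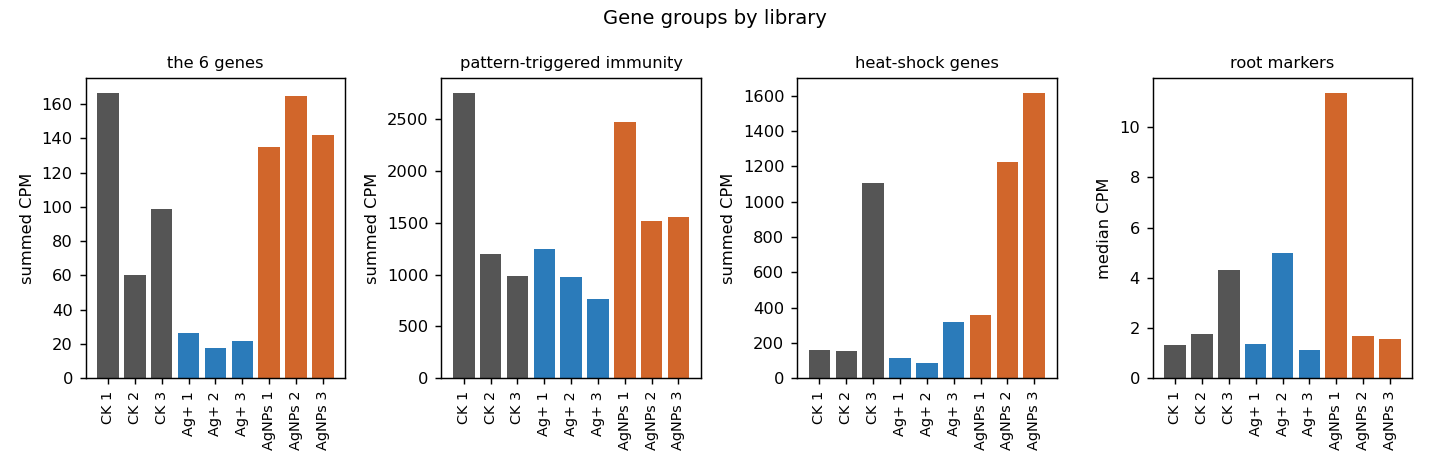
Bars give, for each of the 9 libraries, the summed CPM of the 6 genes, of 24 genes of pattern-triggered immunity and of 15 heat-shock genes, and the median CPM of 15 root markers. The 6 genes are lowest in the 3 Ag+ libraries, at 17.3 to 26.4 CPM, CK 3 stands apart in CK by heat-shock RNA, and AgNPs 1 stands apart from all by root markers.

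The relatives of the 6 genes were examined by family. Of the other 22 EXO70 genes 14 were tested, and edgeR called 1 of them, EXO70H1 (AT3G55150), in 2 of the 4 comparisons. DESeq2 called 4 of the 14 in AgNPs against Ag+, 2 in Ag+ against CK and 1 in both silver groups against CK, and the replicate block in a fit of the CK and Ag+ libraries called 3 in Ag+ against CK. It is the closest relative of EXO70H2 and is known, with EXO70B2, for a part in the response to pathogens. It had 5.61, 1.65 and 8.95 CPM for CK 1 to 3, then 0.196, 0.444 and 0.528 for Ag+ 1 to 3, and 4.24, 8.32 and 6.39 in AgNPs 1 to 3. All Ag+ libraries together held 20 counts. The gene was lower with Ag+ than in CK (log2 fold change of -3.76 with an SE of 0.66, edgeR adjusted p = 0.0131) and higher with AgNPs than with Ag+ (3.98, edgeR adjusted p = 0.0438). The first call was lost without Ag+ 1 (adjusted p = 0.0619), without Ag+ 2 (0.0628) and with limma voom (0.107). EXO70B2 had -0.91 for Ag+ against CK (adjusted p = 0.205) and EXO70B1 had 0.02 (0.987). The median of the 14 was -0.37 for Ag+ against CK, 0.16 for AgNPs against CK and 0.31 for AgNPs against Ag+.

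Of the 11 other exocyst subunits, edgeR called 0 in each of the 4 comparisons, and so did DESeq2 and limma voom. At an unadjusted p under 0.05 there was 1 in each comparison except Ag+ against CK, where there were 0. Their medians were -0.01 for Ag+ against CK and -0.02 for AgNPs against CK. No test set the EXO70 genes against the other subunits.

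LECRKA4.1 is followed on the chromosome by LECRKA4.2 and LECRKA4.3. LECRKA4.3 (AT5G01560) had 12.7, 2.96 and 8.54 CPM for CK 1 to 3, then 2.09, 1.44 and 0.997 for Ag+ 1 to 3, and 6.76, 9.99 and 6.77 in AgNPs 1 to 3. It was lower with Ag+ than in CK (log2 fold change of -2.42 with an SE of 0.51, edgeR adjusted p = 0.0267) and at -0.04 with AgNPs (0.977). The fall was not called without AgNPs 1 and CK 3 (-2.38, adjusted p = 0.0657). LECRKA4.2 (AT5G01550) was at -0.99 with Ag+ (0.235) and at 0.87 with AgNPs (0.306). All 3 genes of this array were lowest in mean with Ag+, and LECRKA4.2 was not called.

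Among the 26 tested lectin receptor kinases other than LECRKA4.1, 2 were lower with Ag+ than in CK, 0 were higher and 24 were not called. Besides LECRKA4.3 this was HLECRK (AT3G59700), which went from 13.1 ± 4.03 CPM in CK to 3.88 ± 0.812 in Ag+ and 13.3 ± 2.73 in AgNPs (Ag+ against CK -1.75, SE 0.27, edgeR adjusted p = 0.00630). HLECRK was also called lower in the mean of both silver groups against CK (-0.86, adjusted p = 0.0487) and higher in AgNPs against Ag+ (1.78, adjusted p = 0.0350). In AgNPs against CK it stood at 0.03 and was not called (edgeR adjusted p = 0.971). AT2G37710, named RLK in the annotation, stood at 86.5 ± 19.5 CPM in CK, 71.4 ± 9.77 in Ag+ and 221 ± 78.2 in AgNPs. It was higher with AgNPs than with Ag+ (1.63, adjusted p = 0.0438) and than in CK (1.35, adjusted p = 0.0322). AT4G02420 was higher in AgNPs than in CK (1.23, adjusted p = 0.0187) and in the mean of both silver groups against CK (0.94, adjusted p = 0.0265). The median of the 26 was -0.28 for Ag+ against CK and 0.31 for AgNPs against CK. The falls with Ag+ were 1 in number, HLECRK alone, without CK 1, without any one of the Ag+ libraries, with limma voom and with only the 6 libraries compared. The call of HLECRK in the mean of both silver groups against CK was lost when any single library was left out (adjusted p 0.0513 to 0.198). The call of AT4G02420 in both silver groups was lost without CK 1, CK 2, Ag+ 1, Ag+ 2, AgNPs 2 or AgNPs 3 (adjusted p 0.0511 to 0.0750). The rises with AgNPs against CK were 0 without AgNPs 2 or AgNPs 3, and RLK was also not called without CK 1, CK 2, Ag+ 1 or Ag+ 2 (adjusted p 0.0562 to 0.113).

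**Figure D4:**
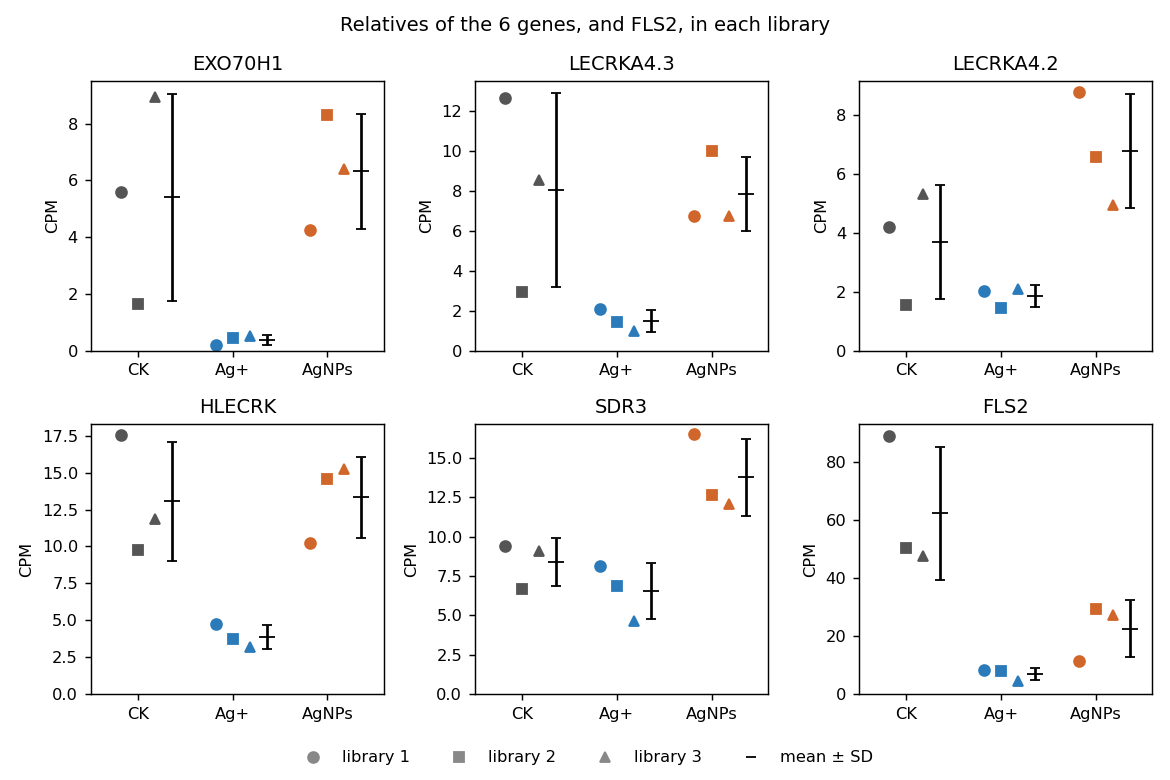
Level in CPM (linear axis from 0) of EXO70H1, LECRKA4.3, LECRKA4.2, HLECRK, SDR3 and FLS2 in the 3 libraries of each group, with the mean and SD in black. EXO70H1, LECRKA4.3 and HLECRK are low in the Ag+ libraries, and SDR3 and LECRKA4.2 were not called. The mean of FLS2 is below CK in both silver groups, and its fall was called with Ag+ but not with AgNPs.

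SDR5 stands beside SDR3 (AT2G47130), its closest relative, and AT2G47150. SDR3 had 8.38 ± 1.5 CPM in CK, 6.54 ± 1.78 in Ag+ and 13.8 ± 2.42 in AgNPs. It was called in none of the 4 comparisons, with -0.36 for Ag+ against CK (edgeR adjusted p = 0.468) and 1.07 for AgNPs against Ag+ (0.0780). AT2G47150 had 0 to 4 counts per library, and AT2G47120 had 0 in all. Of the 6 tested relatives of SDR5 edgeR called 0 in each comparison, with 2 at an unadjusted p under 0.05 in AgNPs against Ag+ and in AgNPs against CK, 1 in both silver groups against CK and 0 in Ag+ against CK. DESeq2 called 1 of the 6, in AgNPs against Ag+, and limma voom 0.

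RIN4 (AT3G25070), the namesake of the family of AT3G07195, had 48.0 ± 13.9 CPM in CK, 41.8 ± 7.24 in Ag+ and 45.3 ± 0.739 in AgNPs. Its log2 fold change was -0.20 for Ag+ (adjusted p = 0.680) and -0.08 for AgNPs (0.896). Of 5 tested members of the family besides AT3G07195, edgeR, DESeq2 and limma voom each called 0 in every comparison, and 1 had an unadjusted p under 0.05, in AgNPs against Ag+. Of the 15 entries listed for this family, 5 were dropped because their description does not name it. These were AT5G64850, AT5G09960, AT5G18310, AT3G07170 and AT5G48657, and edgeR called none of them in any comparison. AT5G48657, the best transcript match of AT3G07195, had 20.8 ± 8.18 CPM in CK, 8.18 ± 4.44 in Ag+ and 36.5 ± 14.9 in AgNPs. Its log2 fold change was -1.35 for Ag+ against CK (edgeR adjusted p = 0.140) and 2.16 for AgNPs against Ag+ (0.0806). A list of 13 genes, RIN4 and other resistance genes, is called RIN4-dependent here, although not all of them need act with RIN4. Of these, ADR1, which encodes a helper resistance protein, was lower with Ag+ than in CK (-0.51, SE 0.12, edgeR adjusted p = 0.0395) and in both silver groups against CK (-0.48, adjusted p = 0.0273). The other 12 were not called in these comparisons, and in AgNPs against CK edgeR and limma voom called 0 of the 13 and DESeq2 1, with 2 at an unadjusted p under 0.05. In AgNPs against Ag+ edgeR and limma voom also called 0 and DESeq2 1, with 5 at an unadjusted p under 0.05. The call of ADR1 for Ag+ was lost when any one library except AgNPs 1 was left out (adjusted p 0.0607 to 0.142) and with only the 6 libraries compared (0.0613). The call in both silver groups was lost without 7 of the 9 libraries, all but Ag+ 1 and AgNPs 1 (adjusted p 0.0551 to 0.0976).

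In the family of SHB1 the called genes went the other way from SHB1 with Ag+. PHO1;H1 (AT1G68740), a phosphate exporter gene induced by phosphate shortage, rose from 15.1 ± 5.64 CPM in CK to 36.5 ± 1.60 with Ag+ (log2 fold change of 1.28 with an SE of 0.23, edgeR adjusted p = 0.0132) and 43.7 ± 5.61 with AgNPs (1.53, adjusted p = 0.00804). AT1G26730, a close relative of SHB1, rose from 1.23 ± 0.356 to 2.82 ± 0.854 CPM with Ag+ (1.18, SE 0.29, adjusted p = 0.0446) and 5.46 ± 0.0649 with AgNPs (2.14, adjusted p = 0.00472). Both were also called in both silver groups against CK (1.41 and 1.66), and the other 4 of the 6 tested members, PHO1 among them, were not called. One of these, AT1G35350, is as similar to SHB1 and was at -0.50 with Ag+ (adjusted p = 0.566). In AgNPs against Ag+ edgeR and limma voom called 0 of the 6 and DESeq2 1, with 2 at an unadjusted p under 0.05. The call of AT1G26730 for Ag+ was lost when any one library except CK 3 or AgNPs 1 was left out (adjusted p 0.0523 to 0.145), with limma voom (0.0710) and with only the 6 libraries compared (0.115; 0.105 with the replicate block in that fit). IKU1, which acts with SHB1 in seed growth, was at 0.22 with Ag+ (0.615), and the seed genes WRKY10 and IKU2 had at most 5 counts per group.

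Genes of pattern-triggered immunity were examined because LECRKA4.1, EXO70H1 and RIN4 are known to act in it or on it. Of 24 tested genes, 4 fell with Ag+ against CK, 0 rose and 20 were not called, and the median was -0.58 beside -0.0087 over all genes. The largest fall was that of FLS2 (AT5G46330), the receptor of bacterial flagellin, from 62.3 ± 23.0 CPM in CK to 6.80 ± 2.04 with Ag+ (log2 fold change of -3.20 with an SE of 0.42, edgeR adjusted p = 0.00449). With AgNPs it was at 22.5 ± 9.86 CPM (-1.47, adjusted p = 0.0856), and in both silver groups against CK at -2.33 (adjusted p = 0.00463). The others were EFR, the receptor of a bacterial elongation factor (-0.96, adjusted p = 0.0314), CERK1, a chitin receptor kinase (-0.78, adjusted p = 0.0171), and WRKY22, a transcription factor downstream of FLS2 (-1.21, adjusted p = 0.0355). In AgNPs against CK edgeR and limma voom called 0 of the 24 and DESeq2 1, with 3 at an unadjusted p under 0.05, and the median was 0.19. In AgNPs against Ag+ 1 of the 24 was called, CERK1 (0.96, adjusted p = 0.0350), and the median was 1.01. The falls with Ag+ numbered 1, FLS2 alone, without any one of the Ag+ libraries, and 2 without CK 1 or AgNPs 3. With the replicate block in a fit of the CK and Ag+ libraries 8 of the 24 were called.

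**Figure D5:**
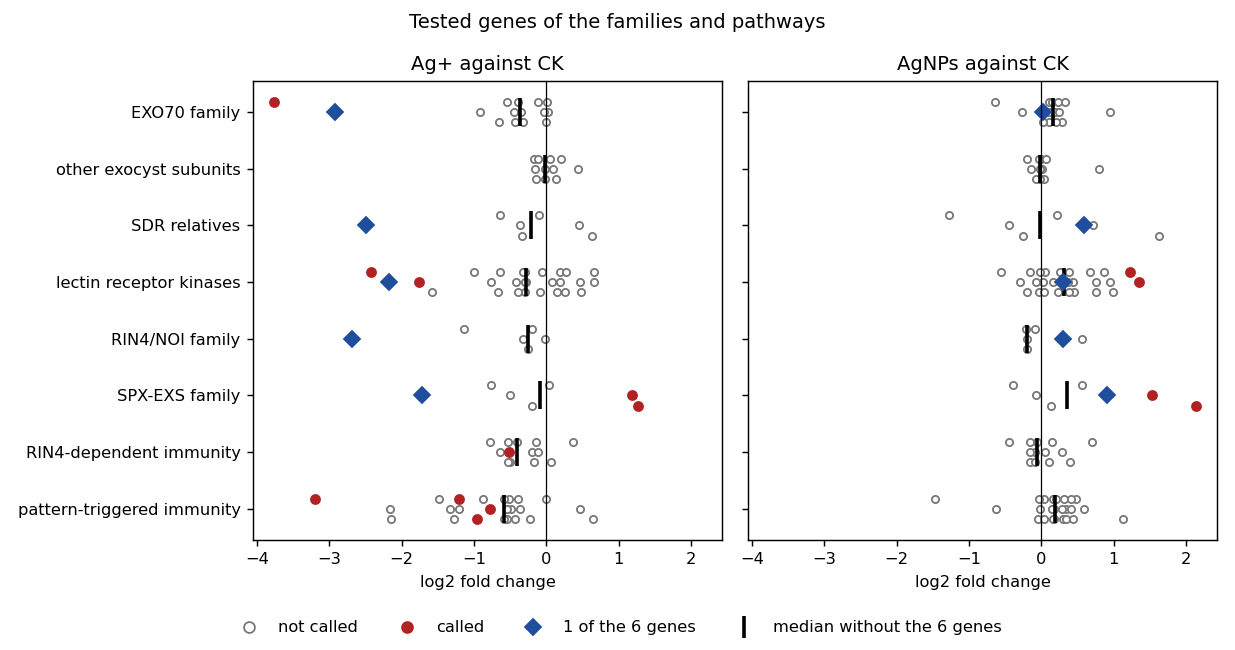
Log2 fold change (horizontal axis) of every tested gene of the 8 families and pathways in Ag+ against CK and in AgNPs against CK, with called genes in red, 5 of the 6 genes as blue diamonds (AT1G49000 is in no family listed) and the median of the other genes as a black bar. With Ag+ the diamonds of SDR5, AT3G07195 and SHB1 are the lowest values of their rows, those of EXO70H2 and LECRKA4.1 are lower than all but EXO70H1 and LECRKA4.3, and with AgNPs they lie between 0.02 and 0.91.

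Genes with the most similar course over the 9 libraries were found by the root-mean-square difference of log2 CPM centred on each gene's mean. All share the same libraries, so the values describe likeness only. Of the 6 genes, SDR5, LECRKA4.1 and EXO70H2 lay close to one another, at 0.29 for SDR5 with LECRKA4.1, 0.36 for EXO70H2 with LECRKA4.1 and 0.39 for SDR5 with EXO70H2. LECRKA4.3 lay at 0.33 from both EXO70H2 and LECRKA4.1. AT3G48640 was the third nearest to SDR5 (0.42) and AT2G44370 the second nearest to LECRKA4.1 (0.32). The nearest to SHB1 were GAD4, for a glutamate decarboxylase (0.28), AT1G65850, a resistance protein of the TIR-NBS-LRR class (0.31), and ACS7, for an enzyme of ethylene synthesis (0.34). AT1G49000 was nearest to AT5G48657 (0.25), MLO12 (0.32) and the kinase gene ARCK1 (0.33). AT3G07195 had looser neighbours, AACT1 (0.44), GA2OX6 for a gibberellin oxidase (0.45) and AT5G44910 (0.47).

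Neighbouring genes did not share the course of the 6 genes to the point of a call. Those tested were AT3G07190 and AT3G07200 beside AT3G07195, AT2G39375 and AT2G39390 beside EXO70H2, FKBP53 and TBL18 beside SHB1, LHCB4.1 and AT5G01542 beside LECRKA4.1, and SDR3 beside SDR5. In Ag+ against CK their log2 fold changes lay between -0.69 (AT5G01542) and 0.69 (LHCB4.1), and none was called there or in the other 3 comparisons. The 2 neighbours of AT1G49000, AT1G48990 and AT1G07523, had at most 3 counts in a library. EXO70H2 and AT2G39375 are annotated on opposite strands over 1986 bases, and LECRKA4.1 overlaps AT5G01542 in the same way. The strand setting of the counting is not given, so reads of these pairs cannot be told apart. AT2G39375 had 14 to 46 counts per library against 18 to 270 for EXO70H2, and AT5G01542 had 50 to 150 against 113 to 1075 for LECRKA4.1.

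Reads of close copies could also have been split or dropped. The most similar other transcripts were SDR3 for SDR5 (74.7% identity over 763 bases), EXO70H1 for EXO70H2 (78.6% over 1952), LECRKA4.2 for LECRKA4.1 (79.7% over 2008) and AT1G35350 (76.4% over 1632) and AT1G26730 (76.3% over 1630) for SHB1. For AT1G49000 and AT3G07195 the best matches, AT3G18560 and AT5G48657, covered 15.3% and 7.90% of the transcript. Apart from AT2G39375, none of these matches was near-identical.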

How the data were processed

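The deposited table holds whole-number counts of reads per gene, not normalized, with 1 column for each of 9 leaf libraries, 3 a group. Per the labels' protocols, TRIzol extraction was followed by removal of ribosomal RNA and by paired-end sequencing of 150 bp in 1 lane, so no sequencing batch could be compared. The submitters' processing notes name HISAT2, an aligner, and the build TAIR10; for the counting tool and its strand setting the sources used here give nothing. Of the 38202 rows, 11452 were 0 throughout. Names came from the RefSeq gene table of TAIR10.1, which matched 37751 identifiers.

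All 9 libraries were fitted together with edgeR 4.0.16 (R 4.3.3; filterByExpr, TMM, robust quasi-likelihood test, group as the only term). Benjamini-Hochberg adjustment ran over the 19889 genes kept, calls were made at an adjusted p under 0.05, and tests were two-sided. Each SE was taken as the size of the log2 fold change over the root of its F statistic. The biological coefficient of variation was 22.5%. Fits were tested on simulated data.

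Alternatives were DESeq2 1.42.0, limma voom (limma 3.58.1), RLE and upper-quartile scaling, no low-count filter, a replicate block, only the groups compared, each library left out, and AgNPs 1 with CK 3 left out. Replicate pairs differed by 8.99 to 64.2 in chi-square per degree of freedom over genes with at least 10 counts, so no library was a copy. Libraries of CK and Ag+ with the same number in the labels deviated together from their group means (correlations 0.123 to 0.231 in 3 of 3 pairs, against -0.18 to 0.049 between different numbers), so the numbers were taken to pair these 2 groups. A fit of these 6 libraries with the number as a block was added after seeing the data. The pairs of AgNPs with CK (-0.11 to -0.024) and with Ag+ (-0.21 to 0.12) gave no such pairing. The highest correlation between libraries of different groups, 0.291, joined different numbers, Ag+ 2 and AgNPs 1. The labels name no pairing, so that of CK with Ag+ is an assumption. Counting error alone is smaller, and PCR reads are not independent molecules.

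The members, the gene lists and the libraries doubted were chosen with earlier results of these data known. Of 190 list entries 7 were dropped because the reference description did not name the family. The text names the 6 genes, list genes called (if 5 or fewer), close relatives, neighbours and the 3 genes of most similar course for each gene; that likeness used log2 CPM with a prior count of 2. Windows of 250 bases were read from the TAIR10.1 genome with its own annotation, and transcripts were compared with BLAST 2.17.0.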

Additional observations from a re-analysis of the deposited data

How the results depend on the processing

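The direction of all 6 genes held in each of the 18 alternatives of Ag+ against CK and the 17 of AgNPs against Ag+. The choice of the genes fixed this direction for AgNPs against Ag+ and partly for Ag+ against CK, so it is a description only. Calls depended on single libraries, and the causes of that were not tested. Small values near CK reversed. In AgNPs against CK, AT3G07195 went to -0.18 without AgNPs 1 and CK 3 and ranged from -0.0765 (without CK 3) to 1.06 when 1 library was left out. EXO70H2 there ranged from -0.34 (without CK 2; -0.11 without AgNPs 2) to 0.27, and LECRKA4.1 from -0.0808 (without CK 2) to 0.60. In both silver groups against CK, AT1G49000 ranged from -0.54 to 0.17 (without CK 1). The 6 genes had 18 to 156 counts per Ag+ library, and the counting error of such counts adds to the spread.

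Genes called in AgNPs against Ag+ (136) numbered 868 with DESeq2, 50 with limma voom, 408 with only the groups compared, 1276 without AgNPs 1 and CK 3, and 0 to 444 without 1 library. For both silver groups against CK (1026) they numbered 1810 with DESeq2, 1782 without AgNPs 1 and CK 3, and 450 to 1179 without 1 library. For Ag+ against CK (1108) they numbered 1901, 2003, and 419 to 1372. For AgNPs against CK (660) they numbered 1447, 1603, and 224 to 809, with 351 from only the groups compared. Of the 6 genes, both silver groups against CK gave 2 with DESeq2, 0 with limma voom, and 0 to 3 without 1 library (3 without CK 2), Ag+ against CK gave 6 with DESeq2, 3 with limma voom or only the groups compared and 1 to 6 without 1 library, and AgNPs against CK gave 1 without AgNPs 1 and CK 3.

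The fit of the CK and Ag+ libraries alone took the numbers to pair the samples, which the labels do not state. Its replicate block called 3 EXO70 genes, 1 SPX-EXS gene (AT1G26730 lost) and 8 of pattern-triggered immunity. The block changed no other call printed for Ag+ against CK besides that of AT1G49000. Over all 9 libraries, where the numbers of AgNPs showed no such pairing, the replicate block gave 236 genes in AgNPs against Ag+. It gave 0 of the 6 genes in both silver groups against CK (EXO70H2, edgeR adjusted p = 0.0580). In families it gave 3 EXO70 genes in AgNPs against Ag+ and 3 in Ag+ against CK. In AgNPs against Ag+ it also gave 1 SDR relative, 1 gene of RIN4-dependent resistance and 3 of pattern-triggered immunity. Lectin kinases numbered 1 in both silver groups and 1 in AgNPs against CK. In Ag+ against CK there was 1 SPX-EXS gene (AT1G26730 lost, edgeR adjusted p = 0.0653), and WRKY22 was also not called (0.0553). In both silver groups there were 2 genes of pattern-triggered immunity.

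Family counts moved as follows. In AgNPs against Ag+, EXO70 genes numbered 4 with DESeq2 or only the groups compared, 0 with limma voom, 2 without the low-count filter and 3 without AgNPs 1 and CK 3, and lectin kinases 5 with DESeq2 or only the groups compared and 0 with limma voom. There pattern-triggered immunity genes numbered 8 with DESeq2, 6 with only the groups compared, 4 with upper-quartile factors, 3 without the filter and 7 without AgNPs 1 and CK 3. SDR relatives numbered 1 with DESeq2, and SPX-EXS genes 1 with DESeq2, only the groups compared, or without AgNPs 1 and CK 3. RIN4-dependent genes numbered 1, 1 and 2 in these settings. In Ag+ against CK, EXO70 genes numbered 2 with DESeq2 or without AgNPs 1 and CK 3 and 0 with limma voom, lectin kinases and SPX-EXS genes 1 each with limma voom or only the groups compared, RIN4-dependent genes 0 with only the groups compared and 3 without AgNPs 1 and CK 3, and pattern-triggered immunity genes 7 without the latter. In AgNPs against CK, lectin kinases numbered 0 with only the groups compared, SDR relatives 1 without AgNPs 1 and CK 3, RIN4-dependent genes 1 with DESeq2 and 2 without AgNPs 1 and CK 3, and pattern-triggered immunity genes 1 in each. In both silver groups against CK, EXO70 genes numbered 1 with DESeq2, and lectin kinases 1 with limma voom and 4, and pattern-triggered immunity genes 3, without AgNPs 1 and CK 3. Without 1 library, in the order AgNPs against Ag+, both silver groups, Ag+ and AgNPs against CK, EXO70 genes ranged over 0 to 3, 0 to 1, 0 to 2 and 0, lectin kinases 0 to 4, 0 to 2, 1 to 3 and 0 to 3, RIN4-dependent genes 0 to 1 in all 4, and pattern-triggered immunity genes 0 to 6 in the first, 1 to 6 in the third and 0 to 1 in the fourth. SPX-EXS genes ranged over 0 to 1 in AgNPs against Ag+ and 0 to 3 in Ag+ against CK.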
